A study of Anas platyrhynchos x Cairina moschata with 205 samples.

Results

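ALDH3A2 and ALDH7A1 are the 2 aldehyde dehydrogenase genes on a panel of 86 target genes (92 assays with the reference genes and controls) measured in the livers of mule ducks, the hybrid of Anas platyrhynchos and Cairina moschata. They were taken by their symbols, with earlier results of these data known. The study asked how hepatic expression responds when the incubation temperature of the egg is raised, a treatment called embryonic thermal manipulation (TM). TM eggs were incubated at a higher temperature for part of the day from embryonic day 13 (E13), and control eggs stayed at the standard temperature throughout. All eggs were of one genotype, and whole livers were sampled. The first trial followed the first day of the increase with 8 TM and 8 control livers at each of 7 points, the earliest at 30 min, then hourly until 5 h, and the last at 7 h. The second trial sampled E12, E16, E20, E24, E28 and hatching (E30), with 8 TM and 8 control livers at each point, except that E16 had 8 TM and 5 control livers. By the study's timeline E12 came before the increase and E28 after its end, although the labels describe every sample as taken after it, so E12 gives the difference between the groups without the treatment.

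Aldehyde dehydrogenases use NAD or NADP to oxidise aldehydes to carboxylic acids, and the liver is one of their main sites. In humans, ALDH3A2 encodes the fatty aldehyde dehydrogenase of the endoplasmic reticulum, which turns long-chain aldehydes from the breakdown of fatty alcohols, ether lipids and sphingolipids into fatty acids, and its loss causes Sjögren-Larsson syndrome. ALDH7A1, also called antiquitin, oxidises the semialdehyde formed in lysine degradation and also acts on betaine aldehyde and on aldehydes from lipid peroxidation, and its loss causes pyridoxine-dependent epilepsy in humans. These roles come from mammals and are given as background.

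Expression was measured by quantitative PCR in the Fluidigm microfluidic format. The deposited values are relative expression ratios, 2 to the power of −∆∆Ct, where Ct is the PCR cycle at which the product is detected. Each Ct was set against 4 reference genes in the same liver (ACTB, luciferase, STAB1 and USP9X in the first trial, HPRT1, luciferase, STAB1 and USP9X in the second) and against the average of the gene over the trial. Luciferase is an exogenous RNA added at reverse transcription. Values are given below as log2 ratios, so 1 unit is 1 cycle and 0 is close to the average of the gene in that trial. Levels are therefore comparable within a trial and a gene, not between the trials or between the pair. In bulk liver RNA, fewer cells that express a gene and less RNA per cell cannot be told apart. Each group at a point came from 1 incubator, so temperature and incubator cannot be told apart either, and p-values measure the spread between livers.

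Between 18 and 86 of the 86 target genes had a ratio in a given liver (median 81), with a median Ct per liver of 17.1 to 23.6 cycles. Albumin (ALB), the hepatocyte marker, had a Ct in 204 of 204 livers. Of the other hepatocyte markers, APOB had a Ct in 203 livers, HNF4 in 202 and CYP2C in 201, and STAB1, of the sinusoidal endothelium, had one in 201. Fewer than 4 reference genes had a Ct in 5 livers. Among these, luciferase was missing in TM replicate 3 of the 2 h point and in TM replicate 1 of the 4 h point, and only 2 reference genes were detected in control replicate 3 of the 5 h point. The differences between TM and control livers at these 3 points, the interaction, the spread and the correlation of the pair are given with and without these livers. The other 2 livers, control replicate 7 at E16 and TM replicate 1 at E20, had luciferase alone and no ratio for either gene.

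Detection differed between the pair. ALDH7A1 had a ratio in 197 of 205 livers (110 of 112 in the first trial, 87 of 93 in the second), with a Ct of 13.7 to 21.4 cycles. ALDH3A2 had a ratio in 176 of 205 livers (91 of 112 and 85 of 93), with a Ct of 16.7 to 28.6 cycles. A further 8 livers had a Ct but no ratio for ALDH3A2 and 6 for ALDH7A1, and these stayed blank as the authors left them. Where such a liver bears on a comparison, its value from the deposited Ct, put on the scale of the ratios, is given beside it. At 4 of the hourly points (1 h, 4 h, 5 h, 7 h) the control group kept only 5 livers for ALDH3A2, under the minimum of 6. Its values at these points carry no test under that minimum. Of 26 comparisons of TM with control livers (both genes at 13 points), 22 could be tested.

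Of these 22 comparisons, 2 passed an exact two-sided permutation test at an unadjusted p under 0.05, and neither passed after the Benjamini-Hochberg correction in limma over all genes of the point. ALDH7A1 was higher in TM livers 1 h after the increase began, and ALDH3A2 was lower in TM livers at E12, before the increase. Among all genes tested, 10.5% passed the same unadjusted test at 1 h (3.95% higher, 6.58% lower) and 7.41% at E12 (4.94% higher, 2.47% lower). At the 11 other points, where neither gene passed, the share of all genes was 7.69% at 30 min, 6.49% at 2 h, 13.3% at 3 h, 5.33% at 4 h, 14.3% at 5 h, 14.7% at 7 h, 17.5% at E16, 10.0% at E20, 10.0% at E24, 9.76% at E28 and 9.52% at E30.

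At 1 h, ALDH7A1 had a lowest value of −0.98, a median of 0.63 and a highest of 1.01 in the 8 TM livers, against −1.24, −0.50 and 0.87 in the 8 control livers. The highest control liver, replicate 8, had a ratio for only 46 target genes. The ranges overlapped, but 7 of 8 TM livers lay above 0 against 3 of 8 control livers, and 7 of 8 TM livers lay above the control median. The mean was 0.41 ± 0.64 in TM livers and −0.35 ± 0.72 in control livers (SD, n = 8 each), a difference of 0.77 or 1.70-fold (exact two-sided permutation test, p = 0.0449). The 95% interval of the difference in limma was 0.05 to 1.48, with an adjusted p of 0.400. The median difference over the 76 genes tested at this point was 0.10, and ALDH7A1 ranked 6th from the highest.

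This call rested on small margins. Leaving out 1 liver at a time gave differences of 0.64 to 0.96 with exact permutation p of 0.00948 to 0.0847, and in 11 of 16 cases the p passed above 0.05. With each liver centred on its own panel median the difference was 0.72 (exact permutation p = 0.00171, limma adjusted p = 0.0757), and with luciferase left out of the reference genes it was 0.80 (exact permutation p = 0.0404, limma adjusted p = 0.270). The Ct of ALDH7A1 itself was 16.4 cycles on average in TM livers and 17.0 in control livers, a difference of −0.55 (exact permutation p = 0.110). ACTB, one of the reference genes, had a Ct 0.65 cycles later in TM livers (exact permutation p = 0.0286), while the mean of the reference genes differed by 0.16 cycles (exact permutation p = 0.611). The part of these shifts in the difference was not tested. None of the 4 hepatocyte markers passed at 1 h, where they differed by 0.41 (ALB), 0.36 (APOB), 0.53 (CYP2C) and 0.75 (HNF4).

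At the other hourly points the 2 groups overlapped for ALDH7A1. The difference, TM minus control, was −0.22 at 30 min, −0.01 at 2 h, −0.45 at 3 h, −0.09 at 4 h, 0.30 at 5 h and −0.26 at 7 h, with exact permutation p of 0.309 to 0.972. None of these 6 passed, and the limma intervals ran as low as −1.30 (3 h) and as high as 1.26 (5 h), so differences up to that size lay within the error. The largest spread was in control livers at 3 h and 5 h, where single livers lay at −1.66 and −2.32 and the SD were 1.00 and 1.13. The low liver was numbered control replicate 3 at both points, a different embryo at each. Without the low liver of the point, the difference was −0.75 at 3 h (exact permutation p = 0.0460) and −0.01 at 5 h. The low liver at 5 h was the one with 2 reference genes. Without the TM liver that lacked luciferase, the difference was 0.11 at 2 h and 0.10 at 4 h. Blank livers moved 2 of these values. With every deposited Ct the difference was 0.49 at 5 h, where TM replicate 6 came out at 1.64, and −0.63 at 7 h, where control replicate 6 came out at 3.03 (exact permutation p = 0.337 and 0.198). These livers had luciferase at 30.2 and 31.4 cycles, and 46 and 18 target genes with a ratio. Against the endogenous reference genes alone they had 0.11 and 1.40. The part of luciferase in their values was not tested.

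**Figure D1:**
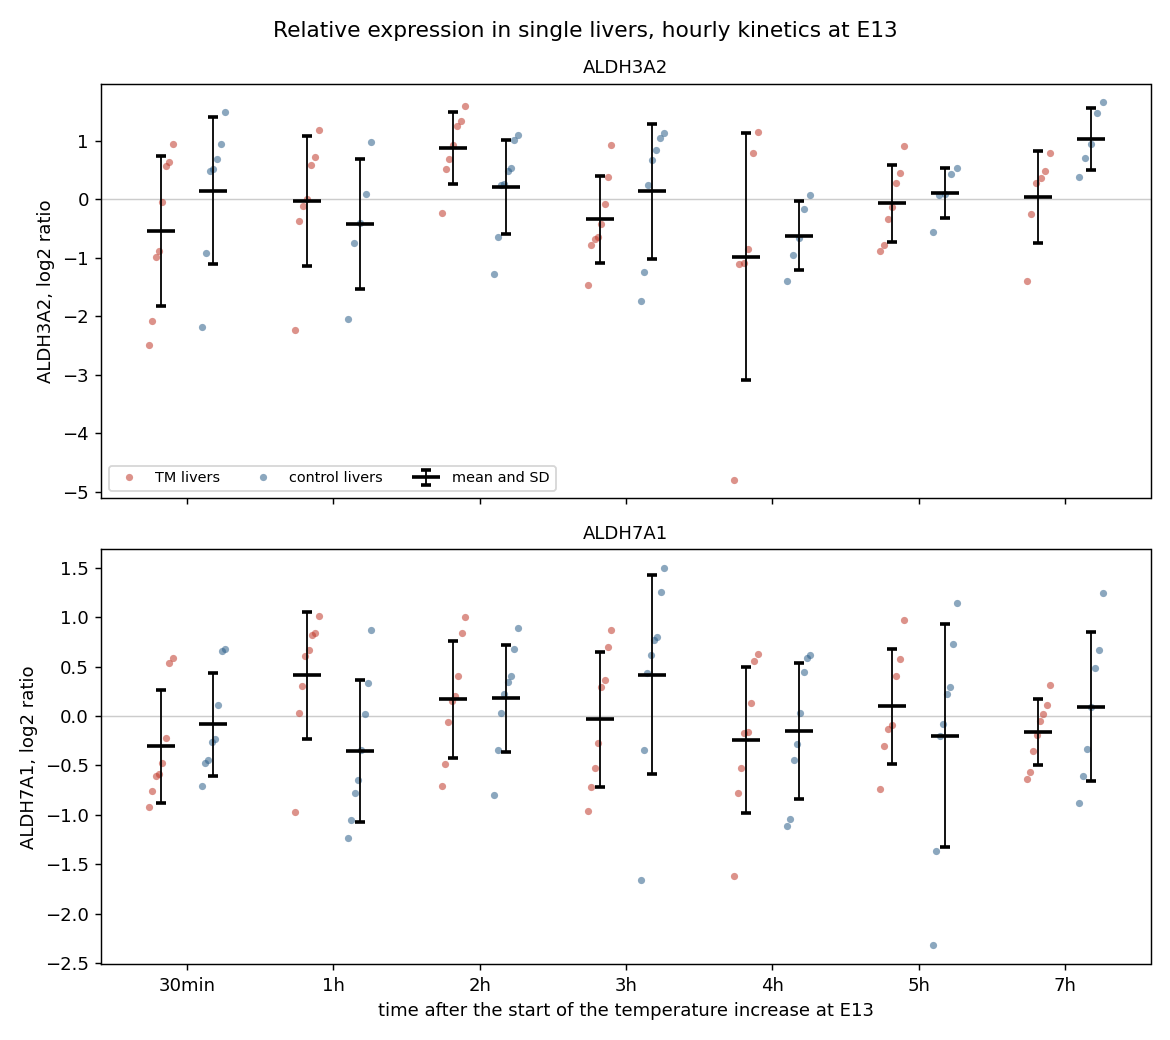
Log2 ratio of ALDH3A2 (upper panel) and ALDH7A1 (lower panel) in single livers of the first trial, by time after the start of the temperature increase at E13, TM livers (red) left of control livers (blue), with the mean and SD as bars. At 1 h, 7 of 8 TM livers lie above the control median for ALDH7A1, and at 4 h one TM liver lies at −4.80 for ALDH3A2.

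ALDH3A2 passed the test at none of the 3 hourly points where it could be tested. Its mean was lower in TM livers at 30 min, with a lowest value of −2.49, a median of −0.46 and a highest of 0.95 in 8 TM livers against −2.18, 0.52 and 1.49 in 7 control livers (difference −0.69, exact permutation p = 0.310). The Ct of ALDH3A2 itself differed by −0.035 cycles at 30 min, over 8 TM livers and 6 control livers (exact permutation p = 0.961). Control replicate 1 had a ratio but no Ct. The Ct of STAB1 differed by −1.27 cycles (exact permutation p = 0.00202) and that of ACTB by −0.64 (exact permutation p = 0.0455). The mean of the reference genes differed by −0.58 cycles (exact permutation p = 0.0730). The part of the reference genes in the difference was not tested. At 2 h ALDH3A2 was higher, with −0.23, 0.93 and 1.60 in 7 TM livers against −1.28, 0.38 and 1.10 in 8 control livers (difference 0.66, 1.58-fold, exact permutation p = 0.104). In this comparison 3 of 7 TM livers lay above every control liver. TM replicate 7 was the lowest TM liver at 2 h, and without it the difference was 0.84 (exact permutation p = 0.0330). Without TM replicate 3, which lacked luciferase, it was 0.69 (exact permutation p = 0.117). At 3 h the difference was −0.48 (exact permutation p = 0.342), and 7 of 8 TM livers lay below the control median.

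The 4 hourly points with 5 control livers are given by value, with a p only under a lower minimum or with every deposited Ct. At 1 h ALDH3A2 averaged −0.03 ± 1.11 in TM livers (SD, n = 7) and −0.43 ± 1.11 in control livers (n = 5). Control replicate 8 was blank but had a Ct of 19.7 cycles and came out at 2.82, above every TM liver. With every deposited Ct the difference was −0.15 in place of 0.40. That control liver had a ratio for only 46 target genes. At 4 h it had −4.80, −1.10, −1.09, −0.86, 0.80 and 1.16 in the 6 TM livers and −1.40, −0.95, −0.66, −0.16 and 0.08 in the 5 control livers. The TM liver at −4.80 had a Ct of 25.5 cycles and was the one without luciferase, and the difference was −0.36 with it and 0.40 without it. TM replicate 4 was blank and came out at 2.24 from its Ct, and with every deposited Ct the difference was 0.10. At 5 h the means were −0.06 ± 0.66 in TM livers (n = 7) and 0.12 ± 0.43 in control livers (n = 5), and with every deposited Ct, which adds control replicate 3 at 1.20, the difference was −0.36 (exact permutation p = 0.312). TM replicate 6 at 5 h, at −0.13, had luciferase at 30.2 cycles and came to −1.68 against the endogenous reference genes alone.

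At 7 h all 6 TM livers with a ratio lay below the control median, but TM replicate 2, left blank, had a Ct of 19.5 cycles and came out at 2.12, above every control liver. ALDH3A2 had −1.40, −0.25, 0.27, 0.36, 0.49 and 0.79 in TM livers against 0.38, 0.71, 0.96, 1.48 and 1.66 in control livers, a difference of −0.99, and 4 of 6 TM livers lay below every control liver. The control liver at 0.96, replicate 6, had a ratio for only 18 target genes and luciferase at 31.4 cycles. It came to −0.69 against the endogenous reference genes alone, and without it the difference was −1.01. With every deposited Ct the difference was −0.70. With the minimum lowered to 3 livers, the exact permutation p was 0.0260 and the limma adjusted p 0.296, over the livers with a ratio. The reference genes moved at this point. Their mean Ct was 18.2 ± 0.87 cycles in TM livers and 19.4 ± 1.05 in control livers (SD, n = 8 each, exact permutation p = 0.00497), with luciferase at 21.3 ± 1.40 and 24.0 ± 3.30 cycles. The Ct of ALDH3A2 itself differed by −0.59 cycles over 7 TM livers, TM replicate 2 among them, and 5 control livers (exact permutation p = 0.422). Against the endogenous reference genes alone the difference was −0.43 over the livers with a ratio, and −0.14 when TM replicate 2 was also brought in. The median difference over all 75 genes tested at 7 h was −0.29, and after centring on the panel median the difference for ALDH3A2 was −0.47.

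At E12, before the temperature increase, ALDH3A2 was lower in the group that was later to be warmed. The 7 TM livers with a ratio had −1.79, 0.17 and 1.15 as lowest value, median and highest, against −0.19, 1.44 and 2.17 in the 8 control livers. The highest TM liver, replicate 8, had luciferase at 28.9 cycles and 56 target genes with a ratio. It came to −0.24 against the endogenous reference genes alone. The ranges overlapped, but all 7 TM livers lay below the control median and 3 of 7 below every control liver. The means were −0.20 ± 0.99 in TM livers (SD, n = 7) and 1.15 ± 0.93 in control livers (n = 8), a difference of −1.35 or 0.393-fold (exact two-sided permutation test, p = 0.0190, limma adjusted p = 0.274). ALDH3A2 ranked 3rd of 81 genes by p at this point, and the median difference over all genes was 0.19 in the other direction.

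Leaving out 1 liver at a time kept this difference between −1.57 and −1.08, with exact permutation p of 0.00758 to 0.0396. With each liver centred on the panel mean it was −1.50 (exact permutation p = 0.000777, limma adjusted p = 0.0216), and on the panel median −1.44 (exact permutation p = 0.00218, limma adjusted p = 0.0521). Against the endogenous reference genes alone it was −1.52 over the same livers (exact permutation p = 0.00373, limma adjusted p = 0.0749). The ratio of TM replicate 2 had been left blank, although a Ct of 18.5 cycles was deposited, and luciferase in that liver had 27.8 cycles. When every deposited Ct was used, this liver came out at 2.96 and the difference was −0.95 (exact permutation p = 0.138), or −1.26 against the endogenous reference genes (exact permutation p = 0.0211). The Ct of ALDH3A2 differed by 0.51 cycles over 8 TM livers, TM replicate 2 among them, and 8 control livers (exact permutation p = 0.340). In TM livers 2 reference genes had a lower Ct, with differences of −0.86 cycles for HPRT1 (exact permutation p = 0.0362) and −0.63 for USP9X (exact permutation p = 0.0337). The part of the reference genes in the difference was not tested. Of the 4 hepatocyte markers, CYP2C was higher in TM livers at E12 by 0.92 (exact permutation p = 0.0385), and ALB (−0.081), APOB (−0.033) and HNF4 (0.46) did not pass. ALDH7A1 at E12 averaged 0.27 ± 0.50 in TM livers (SD, n = 7) and 0.26 ± 0.64 in control livers (n = 8), and the limma interval of the difference was −0.65 to 0.66. TM replicate 2 was blank here too and came out at 2.15, which made the difference 0.24.

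During and after the treatment, ALDH3A2 did not pass at any daily point, with exact permutation p of 0.212 to 0.970. At E16, 4 of 7 TM livers lay above every one of 4 control livers, with −0.99, 0.54 and 0.89 as lowest value, median and highest in TM livers, against −1.01, −0.80, −0.11 and 0.35 in control livers (difference 0.58, exact permutation p = 0.212). TM replicate 8 was blank and came out at 2.49, and with it the difference was 0.87 (exact permutation p = 0.164). The median difference over the 80 genes tested at E16 was 0.55, and after centring on the panel mean the difference was 0.14. At E20, ALDH3A2 had −2.25, −0.35 and 0.36 in 7 TM livers against −1.88, 0.50 and 1.24 in 6 control livers (difference −0.79, exact permutation p = 0.212), and all 7 TM livers lay below the control median.

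At E24 and E28 the control group held a liver far below the rest. At E24 the lowest value, median and highest were −3.19, −0.35 and 0.55 in 8 TM livers, against −8.51, −1.53 and 0.56 in 7 control livers, a difference of 1.49 (exact permutation p = 0.222) that was 0.45 (exact permutation p = 0.511) without control replicate 8. Control replicate 6, left blank, came out at 0.56 from its Ct, and with it the difference was 1.14. At E28 they were −1.64, 0.44 and 1.57 in 8 TM livers, against −5.89, 0.15 and 1.08 in 8 control livers, a difference of 0.65 (exact permutation p = 0.578) that was −0.11 (exact permutation p = 0.849) without control replicate 4. These 2 livers had a Ct of 28.6 and 26.5 cycles for ALDH3A2, the latest in the trial, and Ct this late limit the precision of their values. Their ALDH7A1 values were −0.60 and −0.38, inside the range of their groups.

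At hatching, ALDH3A2 was above 0 in all 7 TM livers with a ratio, with 0.84, 1.20 and 1.45 as lowest value, median and highest of 7, against −1.62, 1.14 and 2.62 in 8 control livers. The means were 1.15 ± 0.20 in TM livers (SD, n = 7) and 1.12 ± 1.26 in control livers (n = 8), a difference of 0.03 (limma interval −0.94 to 0.99, exact permutation p = 0.970). TM replicate 8 was blank, with a Ct of 19.5 cycles, and came out at 0.13, and with it the TM livers had 1.02 ± 0.41 (SD, n = 8) and the difference was −0.10. Control replicate 8 was the low liver, and without it the control livers had 1.51 ± 0.65 (n = 7) and the difference was −0.37 (exact permutation p = 0.197).

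**Figure D2:**
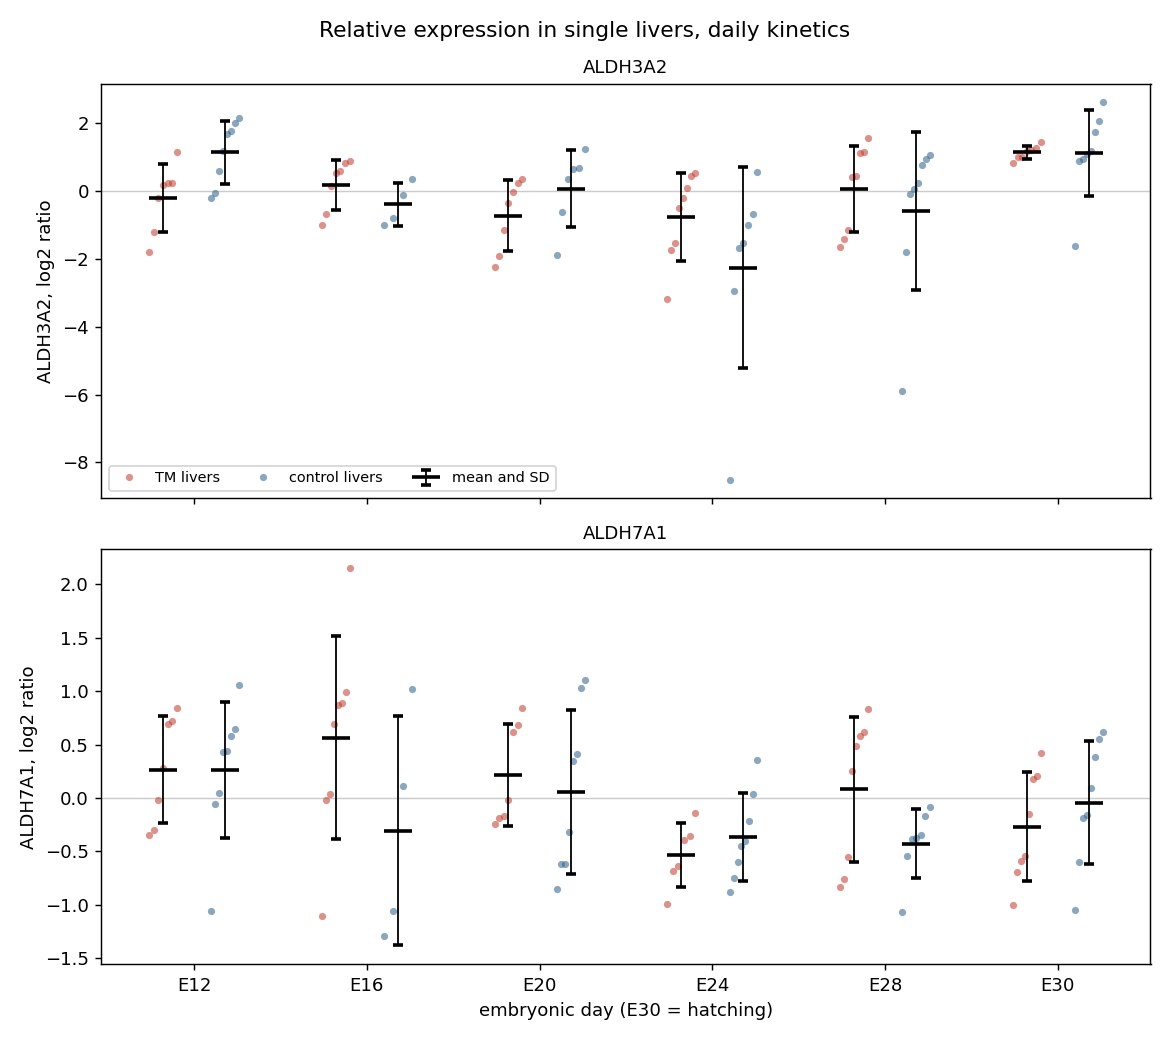
Log2 ratio of ALDH3A2 (upper panel) and ALDH7A1 (lower panel) in single livers of the second trial, by embryonic day, TM livers (red) left of control livers (blue), with the mean and SD as bars. For ALDH3A2 the control livers at −8.51 (E24) and −5.89 (E28) lie apart from the rest, and at E30 the 7 TM livers with a ratio lie between 0.84 and 1.45.

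ALDH7A1 passed at no daily point, with exact permutation p of 0.0970 to 0.984. The largest difference was at E16, where it averaged 0.56 ± 0.95 in TM livers (SD, n = 8) and −0.31 ± 1.07 in control livers (n = 4), a difference of 0.87 or 1.83-fold (exact permutation p = 0.202). Leaving out 1 liver at a time gave 0.54 (without control replicate 2) to 1.31 (without control replicate 3). The panel median at that point was 0.55, and centred on the panel mean the difference was 0.42. The Ct of ALDH7A1 itself differed by −0.36 cycles (exact permutation p = 0.497), and that of HPRT1 by 1.29 cycles (exact permutation p = 0.0566). The part of the reference genes in the difference was not tested. The 4 control livers were at −1.29, −1.05, 0.11 and 1.01, and 7 of 8 TM livers lay above their median.

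The nearest to the threshold was E28, after the end of the treatment, where 5 TM livers were high and 3 low for ALDH7A1. The 8 TM livers had −0.83, −0.75, −0.55, 0.25, 0.49, 0.58, 0.62 and 0.83, against −1.07, −0.55, −0.39, −0.38, −0.35, −0.17 and −0.09 in the 7 control livers. Thus 5 of 8 TM livers lay above every control liver with a ratio, and the difference was 0.51 or 1.42-fold (exact permutation p = 0.0970, limma interval −0.10 to 1.12, adjusted p = 0.643). Leaving out TM replicate 7 or TM replicate 8 gave 0.64 (exact permutation p = 0.0350) and 0.63 (exact permutation p = 0.0402), and the lowest value on leaving out 1 liver was 0.40 (exact permutation p = 0.183). Control replicate 5 was blank, with a Ct of 15.0 cycles, and came out at 0.48, above 4 of 8 TM livers, and with it the difference was 0.39 (exact permutation p = 0.187). At E20, E24 and E30 the differences were 0.16, −0.17 and −0.23 (exact permutation p = 0.638, 0.408 and 0.412). At E24, centring on the panel mean gave −0.24 (exact permutation p = 0.0436), over the 6 TM livers with a ratio. TM replicates 1 and 6 at E24 were blank and came out at 0.63, above every control liver, and −1.54, below every control liver. With them the TM livers had −0.51 ± 0.63 (SD, n = 8) before centring.

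**Figure D3:**
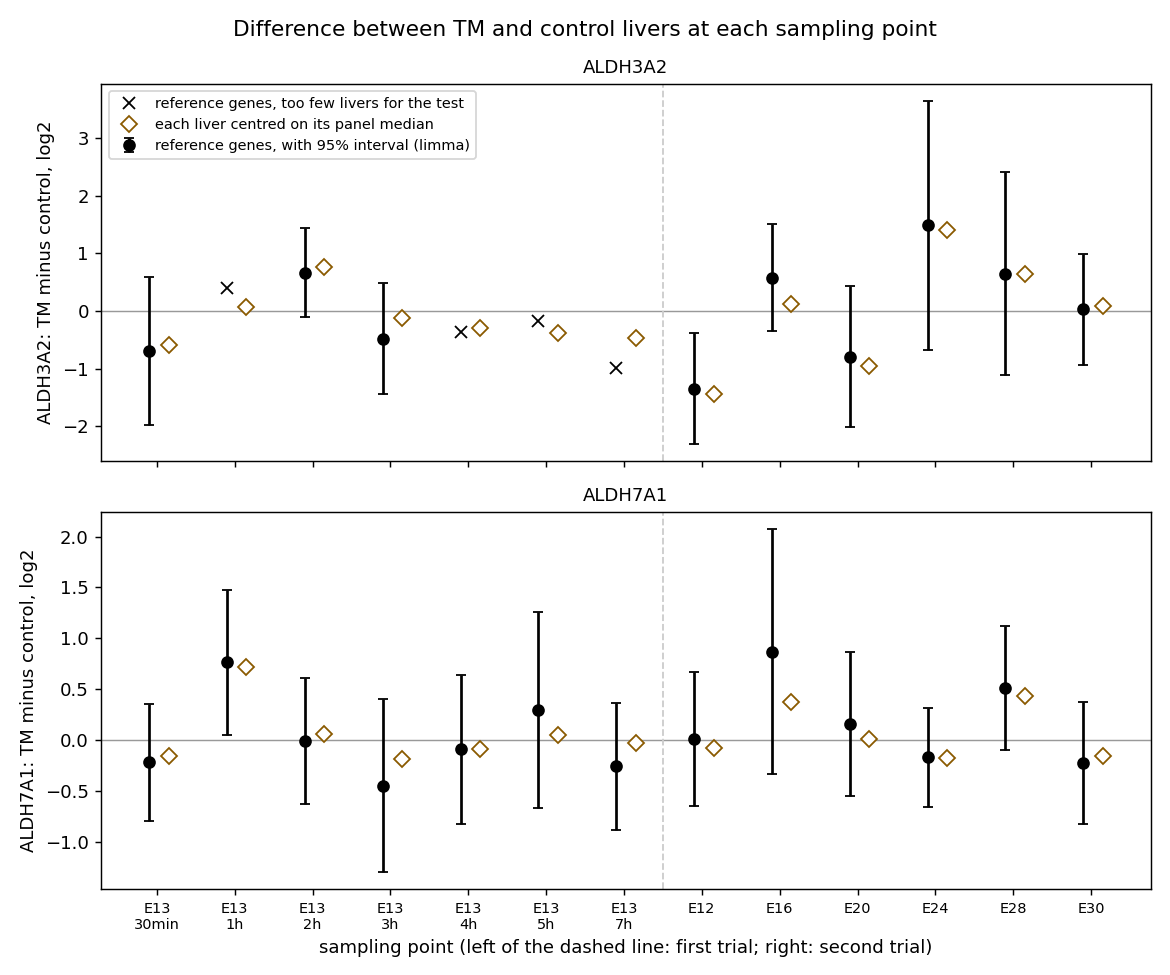
Difference between the mean log2 ratio of TM and control livers at each of the 13 sampling points for ALDH3A2 (upper panel) and ALDH7A1 (lower panel). Filled circles carry the 95% limma interval where tested, which at E16 rests on 4 control livers. Crosses, without interval, mark points with too few control livers for the test. Open diamonds give the difference after centring each liver on its panel median. The interval excludes 0 for ALDH7A1 at 1 h (0.05 to 1.48) and for ALDH3A2 at E12 (−2.31 to −0.39).

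Whether the effect of TM changed between sampling points was tested with an interaction in limma, and neither gene passed. Of all genes, 0.0% passed over the hourly points and 4.71% over the daily points. Over the 7 hourly points the F was 1.14 for ALDH3A2 (limma adjusted p = 0.540) and 1.34 for ALDH7A1 (adjusted p = 0.454), and over E16, E20, E24 and E30 it was 1.61 (adjusted p = 0.455) and 1.76 (adjusted p = 0.453). So the call of ALDH7A1 at 1 h and its absence at other hours were not shown to differ. The TM effect on ALDH7A1 was 0.99 ± 0.50 (SE) larger at 1 h than at 30 min (limma adjusted p = 0.335), and these points came from different pairs of incubators. The TM effect on ALDH3A2 was 2.28 ± 1.06 (SE) larger at E24 than at E20 (limma adjusted p = 0.621), a contrast that holds the control liver at −8.51. Without the livers that lacked a reference gene, the F over the hourly points was 1.55 for ALDH3A2 (limma adjusted p = 0.374) and 1.45 for ALDH7A1 (adjusted p = 0.398).

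The order of the daily means differed between the pair, and no test compared their courses. In TM livers, the means of ALDH3A2 ran, high to low, E30 (1.15), E16 (0.19), E28 (0.065), E12 (−0.20), E20 (−0.72) and E24 (−0.76), a span of 1.91. In control livers the order was E12 (1.15), E30 (1.12), E20 (0.070), E16 (−0.39), E28 (−0.58) and E24 (−2.25), a span of 3.40. Over the livers with a ratio, E30 and E16 in TM livers were 0.96 apart with a pooled SD of 0.54, and the other neighbours differed by less than their pooled SD. With every deposited Ct, which adds a blank TM liver at both days, these days were 0.54 apart with a pooled SD of 0.81, and no neighbours differed by more than their pooled SD. Without the 3 control livers that stood apart, the control means were 1.51 at E30, 0.17 at E28 and −1.21 at E24, which puts E30 above E12 and E28 above E20. For ALDH7A1 the means spanned 1.10 in TM livers, between E16 (0.56) and E24 (−0.53), and 0.69 in control livers, between E12 (0.26) and E28 (−0.43), and no neighbours differed by more than their pooled SD.

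Changes between consecutive daily points were tested in one limma fit of the second trial, and none of the 10 contrasts of either gene passed an adjusted p of 0.05. Of all genes, those that passed were, in TM livers, 1.18% between E12 and E16, 9.41% between E16 and E20, 4.71% between E20 and E24, 11.6% between E24 and E28 and 33.7% between E28 and E30. In control livers they were 12.3%, 7.41%, 5.81%, 15.1% and 27.9% over the same steps. The nearest were 2 contrasts of ALDH3A2 in control livers. It was higher at E30 than at E28 by 1.70 (limma adjusted p = 0.0618), with 1.12 ± 1.26 at E30 and −0.58 ± 2.33 at E28 (SD, n = 8 each), and it was lower at E24 than at E20 (difference −2.32, adjusted p = 0.0645), with −2.25 ± 2.96 at E24 (n = 7) and 0.07 ± 1.13 at E20 (n = 6). With Ct above 24 cycles left out, which drops the control livers at −8.51 and −5.89, these became 0.94 (adjusted p = 0.181) and −1.28 (adjusted p = 0.265). In TM livers ALDH3A2 was higher at E30 than at E28 by 1.08 (adjusted p = 0.276). The E30 against E28 contrast in control livers depended on the setting. With the liver at −5.89 kept, it passed in limma after centring on the panel mean (1.76, adjusted p = 0.0461) or the panel median (1.72, adjusted p = 0.0460). It also passed against the endogenous reference genes alone (1.73, limma adjusted p = 0.0498). Across days the panel mean rested on only 5 genes, those with a ratio in all 91 livers that entered it. By the exact permutation test of the 2 groups alone the contrast did not pass (p = 0.0692).

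For ALDH7A1, the nearest contrast was in TM livers, −0.53 ± 0.30 at E24 (SD, n = 6) against 0.22 ± 0.47 at E20 (n = 7), a difference of −0.75 (limma adjusted p = 0.231, exact permutation p = 0.00583). Of the livers with a ratio, 0 of 6 lay above 0 at E24, against 3 of 7 at E20, but TM replicate 1 and TM replicate 6 at E24 were blank and came out at 0.63 and −1.54 from their Ct. With every deposited Ct the difference was −0.73 (limma adjusted p = 0.247). In control livers the same step was −0.42 (limma adjusted p = 0.451). In the first trial, 7 h against 30 min, which came from the same pair of incubators, ALDH7A1 differed by 0.14 in TM livers (limma adjusted p = 0.966) and by 0.18 in control livers (adjusted p = 0.829), while 0.0% and 1.37% of all genes passed. ALDH3A2 differed by 0.58 in TM livers (adjusted p = 0.966), and in control livers it had 1.04 ± 0.53 at 7 h (SD, n = 5) and 0.15 ± 1.26 at 30 min (n = 7), too few for the test.

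The pair also differed in how much single livers of one group varied. The SD within group and point, pooled over a trial, was 1.04 for ALDH3A2 in the first trial (58th from the lowest of 86 genes) and 1.45 in the second (76th), against 0.71 (37th) and 0.62 (29th) for ALDH7A1. The panel medians were 0.79 and 0.77. With Ct above 24 cycles left out, ALDH3A2 had 0.82 in the first trial (55th of 84 genes) and 1.04 in the second (77th of 85). Without the livers that lacked a reference gene, the SD in the first trial were 0.94 (53rd of 86) for ALDH3A2 and 0.65 (33rd) for ALDH7A1. ALDH7A1 was thus below the panel median and ALDH3A2 above it in both trials under these settings.

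**Figure D4:**
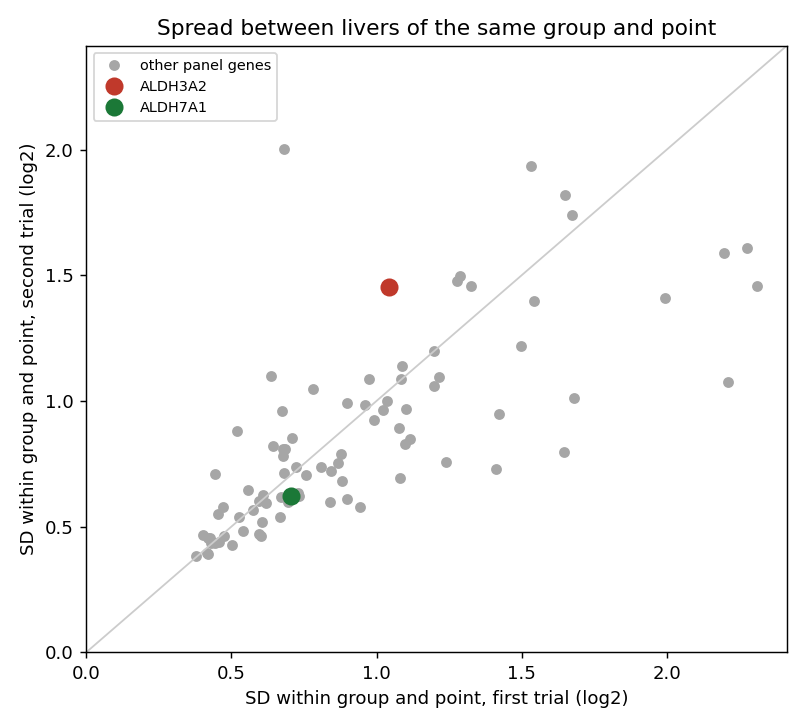
SD of the log2 ratio within group and sampling point, pooled over the first trial (x axis) and over the second trial (y axis), for the 86 target genes, with the line of equal SD. ALDH3A2 (red) lies at 1.04 and 1.45 and ALDH7A1 (green) at 0.71 and 0.62.

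Deviations of single livers from their group means were compared between the pair. Both ratios of a liver were set against the same reference genes, so a shift in these moves both deviations together. The permutation p does not separate this from a relation of the pair. In the first trial, over 89 livers, Pearson r was 0.35 (permutation p = 0.00301, adjusted over both trials 0.00602) and Spearman rho 0.26 (permutation p = 0.0199, adjusted 0.0398). Without the 2 livers farthest from the median of ALDH3A2, r was 0.23, and with each liver centred on its panel median the relation did not hold (r = 0.16, permutation p = 0.152). With Ct above 24 cycles left out, r was 0.21 over 84 livers (permutation p = 0.0642, adjusted 0.128). Without the livers that lacked a reference gene, r was 0.24 over 87 livers (permutation p = 0.0293, adjusted 0.0586), so the relation in the first trial rested in part on these livers. In the second trial, over 82 livers, r was 0.13 (permutation p = 0.168) and rho 0.18 (permutation p = 0.111).

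The course over the 12 group and day means of the second trial was compared with that of the other 85 genes, as a description, since these means share livers, chips and reference genes. Most like ALDH3A2 were ACLY, the citrate lyase that supplies acetyl-CoA for fatty acid synthesis (r = 0.78), HSPA5/HSP70, the chaperone of the endoplasmic reticulum (r = 0.78), and GPAT1, the first acyltransferase of glycerolipid synthesis (r = 0.74). The least like was DIO3, which inactivates thyroid hormone (r = −0.52). Most like ALDH7A1 were CREB2/ATF4, the transcription factor of the integrated stress response (r = 0.83), HSP60, the mitochondrial chaperonin (r = 0.75), and DNMT3A, a DNA methyltransferase (r = 0.74), and the least like was ChREBP, the glucose-sensing activator of lipogenesis (r = −0.57). ACLY stayed first for ALDH3A2 when livers were centred on the panel mean (r = 0.75, a mean of 5 genes across days) or the panel median (r = 0.79). After centring on the panel median, HSPA5/HSP70 and GPAT1 were no longer among the 3 genes most like ALDH3A2. For ALDH7A1 the highest r after centring on the panel median was 0.44, with another gene first. The least like gene of ALDH3A2 and that of ALDH7A1 also changed under either centring. ALDH3A2 and ALDH7A1 had r = 0.38 with each other, 31st of 85 for ALDH3A2 and 41st for ALDH7A1, and 0.06 after centring on the panel median.

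Fatty acid oxidation takes up the fatty acids that ALDH3A2 produces. Of its genes, 5 are described here: CPT1A, which controls entry into mitochondria, the thiolases ACAA2 and ACAT1, the acyl-CoA dehydrogenase ACAD11 and the acyl-CoA synthetase ACSL1. At 1 h, where ALDH7A1 was higher, 0 of these 5 passed the exact permutation test at an unadjusted p under 0.05, against 10.5% of all genes, and 0 passed limma at the same unadjusted threshold. Their differences were 0.60 for ACAT1, 0.37 for CPT1A, 0.10 for ACSL1, 0.041 for ACAD11 and −0.0044 for ACAA2, against a median of 0.10 over all genes. At E12, where ALDH3A2 was lower, 1 of these 5 passed, against 7.41% of all genes. ACAA2, the mitochondrial thiolase that ends each turn of beta-oxidation, averaged −0.39 ± 0.83 in TM livers (SD, n = 7) and 1.06 ± 0.97 in control livers (n = 8), a difference of −1.45 (exact permutation p = 0.0134, limma adjusted p = 0.274). The other 4 differed by 0.40 (ACSL1), 0.22 (ACAD11), 0.12 (CPT1A) and −0.20 (ACAT1), against a median of 0.19 over all genes. Over the livers with a ratio, ALDH3A2 and ACAA2 were the 2 genes of the panel that passed as lower in TM livers at this point. Fewer genes passed at E12 when every deposited Ct was used, and ALDH3A2 was not among them.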

How the data were processed

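Livers of 205 mule duck embryos and hatchlings were used, each in the group its label gives. Per the labels and the study's methods, the authors computed the deposited relative expression ratios as 2 to the power of −∆∆Ct, and they also deposited the Ct (other values, in cycles, exported from the Fluidigm software). R 3.6.2 is named in the submitters' processing notes. Ct of 204 livers were used, and 1 column of Ct was not, because its header did not name a liver. Ratios recomputed from the Ct matched 16138 of 16138 deposited values within 0.02 on the log2 scale, after a constant per gene. The authors left some ratios blank that have a Ct, and these stayed blank unless stated.

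The log2 of each ratio was taken, with no pseudocount, over all 86 rows marked as target genes. At each point the mean difference, TM minus control, was tested by exact permutation over every split of the livers (two-sided, unadjusted p under 0.05, the study's threshold). A gene needed 6 livers in both groups, or 4 where a group holds 5. limma was fitted per point over all genes tested, with the Benjamini-Hochberg correction. Consecutive days (at least 4 livers per group), 7 h against 30 min (at least 6) and the change of the TM effect between points (at least 3) were tested in one limma fit per trial. Alternatives were ratios from all Ct, endogenous reference genes only (over the livers with a ratio), centring on the panel mean, Ct above 24 left out, at least 3 livers, the replicate block, the methods' test, one limma fit per trial, permutation p with Benjamini-Hochberg, and each liver left out in turn. Centring on the panel median, all 6 daily points in the interaction, Ct above 24 left out for the contrasts between days, the correlation of the pair, endogenous reference genes together with all Ct, livers with all reference genes only, and the order of levels from all Ct were added after the data were seen.

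The genes, the pathway list and the rule for named genes were chosen with earlier results of these data known. Named are the pair, the reference genes, the 3 most like and the 1 least like gene of each, and genes of the pathway list that passed where 1 of the pair passed. The hepatocyte markers named at 1 h and E12, and the genes of the list described by role, were named after their values were seen. 1 item of that list is not reported here. The tools were limma 3.58.1 in R 4.3.3 and, in Python 3.11.15, scipy 1.17.1, pandas 2.3.3, numpy 2.4.6 and matplotlib 3.10.9. Both tests were tested on simulated data. The number of PCR replicates per Ct is not given in the sources used here. No genome was used, so positions and sequences are not given.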

Additional observations from a re-analysis of the deposited data

Results flagged for a closer look

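Of 52 groups of livers (both genes, 13 points, TM and control), 3 held a liver whose gap to the next was above Dixon's critical value, where chance flags about 1 in 20 groups. All 3 were control livers of the second trial and concerned ALDH3A2. Control replicate 8 at E24 had −8.51, with a Ct of 28.6 cycles, against −2.95 to 0.56 in the other 6 control livers. Its ALDH7A1 was −0.60, 85 of 86 genes had a ratio, and its median Ct was 19.1 cycles. Control replicate 4 at E28 had −5.89, with a Ct of 26.5 cycles, against −1.80 to 1.08 in the other 7, with ALDH7A1 at −0.38 and 82 ratios. Control replicate 8 at E30 had −1.62, with a Ct of 22.2 cycles, against 0.90 to 2.62 in the other 7, with ALDH7A1 at 0.38 and 83 ratios. What set these livers apart was not tested. For neither gene did the interaction of TM with sampling point pass its test.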

How the results depend on the processing

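ALDH7A1 at 1 h kept its direction and its p under 0.05 under 9 of 11 alternatives that used all livers. At this point every liver had a ratio, and no Ct of ALDH7A1 was above 24. So using all deposited Ct, leaving out late Ct or lowering the minimum of livers could not change its permutation p. That count is therefore not a measure of robustness, and leaving out 1 liver lost the call in 11 of 16 cases. ALDH7A1 at 1 h did not pass with one limma fit per trial (0.77, adjusted p = 0.437) or with Benjamini-Hochberg on the permutation p (0.77, p = 0.432). ALDH3A2 at E12 did not pass with all deposited Ct (−0.95), which brings in TM replicate 2. Nor did it pass with one limma fit per trial (−1.35, adjusted p = 0.724) or with Benjamini-Hochberg on the permutation p (−1.35, p = 0.512). ALDH3A2 at 7 h was −0.43 with endogenous reference genes and −0.14 when the blank livers with a Ct were brought in as well, and it passed with at least 3 livers per group (−0.99). The number of genes past the permutation test was 8 at 1 h, against 4 from all Ct, 11 with endogenous reference genes (4 with all Ct as well) and 16 after centring on the panel mean. At E12 it was 6, against 1 from all Ct and 5 with endogenous reference genes (3 with all Ct as well).

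ALDH3A2 at 1 h and 4 h, with too few control livers for the test, changed direction with every deposited Ct. At 4 h it also did so without the TM liver at −4.80. Among the results with a test, direction changed in the following. ALDH3A2 became −0.11 at E28 with Ct above 24 left out, and at E30 −0.10 from all Ct, −0.039 with endogenous reference genes (−0.16 with all Ct as well) and −0.37 with the replicate block. ALDH7A1 became, at 2 h, 0.15 with endogenous reference genes, 0.14 after centring on the panel mean and 0.056 on the panel median, and at E12 −0.17, −0.15 and −0.082 in the same order, with −0.064 for endogenous reference genes and all Ct together. Centring on the panel mean gave −0.087 at E20, and −0.24 at E24, which then passed over the 6 TM livers with a ratio. Between days, ALDH3A2 in TM livers at E24 against E20 became 0.093 with endogenous reference genes, 0.29 after centring on the panel mean and 0.28 on the panel median, and ALDH7A1 in control livers at E28 against E24 became 0.048 from all Ct and 0.032 from all Ct with endogenous reference genes, both with the blank control replicate 5 at E28, and kept its direction (−0.059) with endogenous reference genes over the same livers. ALDH7A1 in control livers, 7 h against 30 min, became −0.00057 with endogenous reference genes and −0.015 after centring on the panel median. The contrast of ALDH3A2 in control livers between E30 and E28 passed with endogenous reference genes (1.73, limma adjusted p = 0.0498), and after centring on the panel mean (1.76, adjusted p = 0.0461) or the panel median (1.72, adjusted p = 0.0460). These settings kept the control liver at −5.89 at E28, and the exact permutation test of the 2 groups alone did not pass (p = 0.0692). By the exact permutation test of the 2 groups alone, ALDH7A1 in TM livers at E24 against E20 (−0.75, p = 0.00583) and ALDH3A2 in control livers at E16 against E12 (−1.54, p = 0.0202) passed at an unadjusted p under 0.05. Their limma adjusted p were 0.231 and 0.206. The share of all genes that passed this permutation test between days is not given, so these calls have no background to be set against.

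Leaving out 1 liver at a time gave 0.45 to 0.84 for ALDH3A2 at 2 h, −0.11 to 0.89 at E28 and −0.37 to 0.24 at E30. For ALDH7A1 it gave 0.64 to 0.96 at 1 h, −0.15 to 0.11 at 2 h, −0.75 to −0.30 at 3 h, −0.23 to 0.10 at 4 h, −0.0066 to 0.49 at 5 h, −0.18 to 0.12 at E12 and 0.40 to 0.64 at E28. The cause of these changes was not tested. The replicate number was not treated as a pairing, since at no point did every same-numbered pair of livers correlate above 0.1 (median r per point −0.10 to 0.09). A weak pairing could also miss this criterion, so it does not show that pairing was absent. The replicate block changed no call of either gene. Centring on the panel mean was not run for contrasts across points of the first trial, where 1 gene had a ratio in every liver. For contrasts across days of the second trial it rested on 5 genes, those with a ratio in all 91 livers that entered it. For ALDH3A2, 4 of 13 points had too few control livers for the test, and late Ct limit the precision of its lowest values.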
